A study of Mus musculus with 160 samples.

Results

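Ccr9, the receptor for the chemokine Ccl25 made by thymic and gut epithelium, passed a level of 1 TPM first on day 17 among the induced cells of this series, and in some of the day-17 cells but not others. The cells described here are the single day-17 induced hematopoietic progenitor cells (iHPCs), divided by their Ccr9 level. The series held 160 single-cell libraries, and 18 of them were day-17 iHPCs. A library was placed on the side with Ccr9 when its Ccr9 value lay above 1 TPM (a transcript level scaled for transcript length and to the same total in every library), which held for 11 libraries and left 7 without. The sides were selected on this measured Ccr9 value, so the difference in Ccr9 itself is no finding, and "without Ccr9" means a value of 1 TPM or less and not the absence of the receptor.

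All cells were of mouse strain C57BL/6. They came from pluripotent stem cells carrying Runx1 and Hoxa9, joined by a p2a sequence, as a doxycycline-inducible cassette in the Rosa26 locus. The labels name embryonic and induced pluripotent stem cells without assigning either to a cell, while the study's text gives embryonic stem cells as the source of the iHPCs. Induced hemogenic endothelial cells (iHECs) were matured with doxycycline over OP9-DL1 stromal cells, which present a ligand of Notch receptors. Day-14, day-17 and day-21 iHPCs had matured for 3, 6 and 10 days. Day-14 and day-17 iHPCs were sorted as CD45-positive cells lacking markers of mature blood lineages, whereas day-21 iHPCs were sorted as c-kit+CD127+ cells among CD45+Ter119- cells, so day and gate cannot be told apart between day 17 and day 21. CD127 is the protein of Il7r. No label names a culture or an animal, so each group is 1 sample, no test between groups was run, and an SD is the spread between cells.

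Early T lineage progenitors form outside the thymus and have to settle in it. Ccr9 and Ccr7 guide that step together with Selplg, the ligand by which blood cells roll on P-selectin. Lymphoid progenitors on this path carry the cytokine receptors Flt3 and Il7r, and Notch signals in the thymus then switch on T lineage genes such as Tcf7. In the adult, progenitors that keep myeloid enzymes such as Mpo and receptors such as Csf1r take the granulocyte and macrophage path.

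Several libraries stood apart. Libraries 10 and 11, both with Ccr9, correlated at r = 0.992 over all genes on the log2(TPM + 1) scale, and 2.0% of the genes above 1 TPM in either of them were at 0 in the other. Every other pair of day-17 libraries had an r of at most 0.902 and a share of at least 15.3%. They were counted as 1 cell by their mean TPM, which left 17 cells, 10 with Ccr9 and 7 without. Counted as 2 cells, they gave 217 genes in place of the 206 higher ones described next and 101 in place of the 106 lower ones.

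Cell 9, on the side without Ccr9, was low in the RNA of its CD45-positive gate. Its Ptprc, the gene of CD45, was at 0.275 TPM, whereas the other 16 cells ranged from 46.1 to 272 TPM. Ptprc also went down to 0 TPM among day-14 cells, with a median of 25.9 TPM, and among day-21 cells. These were CD45-positive by their gates too, so low Ptprc alone does not set a cell against its gate. Coro1a, a leukocyte actin regulator, was at 6.09 TPM in cell 9. The keratin genes Krt8 and Krt18 of simple epithelia stood at 2306 and 2177 TPM there, with Sox9 at 284 TPM and Hand1 at 173 TPM. Cell 15, also without Ccr9, held both kinds of transcripts, with Krt8 at 1447 TPM, Ptprc at 50.6 TPM and Coro1a at 582 TPM. Among the cells with Ccr9, cell 3 had 226 TPM of Krt8. The remaining 14 cells had at most 18 TPM of Krt8, and all but 1 of the 21 day-14 cells were at or below 100 TPM. These genes were chosen after their values had been seen. Values without cells 9 and 15 are given below for the genes and lists that moved by over 1.5 times or past a difference of 2. Excepted are genes and lists whose difference was under 0.1 on the log2 scale in either direction.

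Ccr9, at chr9:123678439-123784330 (GRCm38, plus strand), passed 1 TPM in 10 of the 17 day-17 cells. Among day-21 iHPCs 33 of 56 passed it, and neither the 21 day-14 iHPCs nor the 65 iHECs held such a cell. Counting error alone allows a day-14 share of up to 14.3%. The day-17 share was 58.8%, with an exact binomial 95% interval of 32.9 to 81.6%, and the day-21 share was 58.9%, with an interval of 45 to 71.9%. The 10 day-17 cells with Ccr9 ran from 1.66 TPM through a median of 18.4 TPM to 80.9 TPM. The cell just inside the threshold was cell 5 at 1.66 TPM, and the one just outside was cell 15 at 0.749 TPM. Of the other cells without Ccr9, cell 9 read 0.175 TPM and cells 1, 12, 16, 17 and 18 were listed at 0.

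Of 9756 genes above 1 TPM in at least 5 of the 18 libraries, Ccr9 left out, 206 had a mean log2(TPM + 1) higher by 2 or more in the cells with Ccr9, which is 2.11% of the genes. Another 106 genes, or 1.09%, were lower by 2 or more. The median difference over all genes was 0.05. Of the 70 pairs of 1 cell with and 1 without Ccr9, the cell with Ccr9 was the higher in at least 0.9 of them for 68 genes (0.697%) and the lower in at least 0.9 for 23 genes (0.236%). For 5 genes (0.0513%) every cell with Ccr9 lay above every cell without it, and for 0 genes did the reverse hold. Few genes therefore separated the sides in all or nearly all pairs of cells. Leaving out cell 12, 16 or 17 raised the lower genes to 178, 160 and 194 and the genes higher in most pairs to 126, 120 and 119. The genes lower in most pairs numbered 60, 49 and 68 without those cells and 46 without cell 18. Without cells 9 and 15 the counts were 254 higher and 121 lower genes, and 141 of the 206 and 57 of the 106 were among them.

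The 5 genes that did not overlap were Smim5, Ube2l6, Tgtp2, Prkca and Selplg. Smim5, a small membrane protein gene at chr11:115899966-115906269, had the largest difference of the 9756 genes. It read 21.1 to 214 TPM in the cells with Ccr9, with a median of 56 TPM. Among the cells without Ccr9 it was at 17.7 TPM in cell 15, 15.6 TPM in cell 16, 0.385 TPM in cell 12 and 0 in the other 4, a difference of 4.84. At day 14 no cell was above 1 TPM of Smim5, and at day 21 25 of 56 were. Prkca, which codes for a protein kinase C, ran from 5.21 to 21.8 TPM with Ccr9 and reached at most 4.33 TPM without it. Selplg ran from 219 to 485 TPM with Ccr9, and without it from 0.736 TPM in cell 9 and 18.3 TPM in cell 15 to 201 TPM in cell 17. Its difference of 2.35 became 1.49 without cell 9 and 0.99 without cells 9 and 15.

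**Figure D1:**
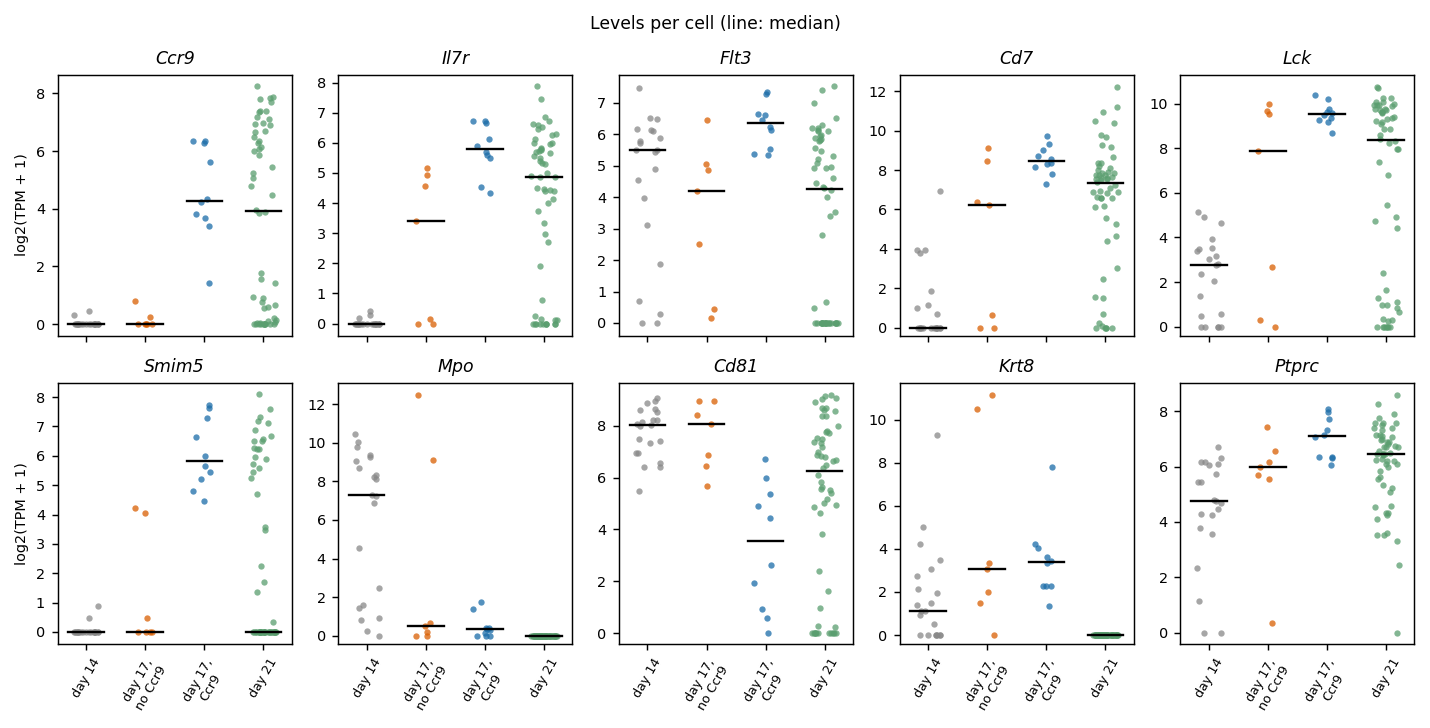
Levels of 10 genes as log2(TPM + 1) in each of 21 day-14, 7 day-17 cells without Ccr9, 10 day-17 cells with Ccr9 and 56 day-21 iHPCs, with the median as a line. Il7r, Flt3, Cd7 and Lck were narrow among the cells with Ccr9 and spread from about 0 into the range of those cells among the cells without, Mpo was high in 2 of the cells without, and Krt8 was highest in cells 9 and 15.

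The marker genes of the split were read next. Il7r, the interleukin-7 receptor chain, ran from 19.2 TPM through a median of 54.6 TPM to 105 TPM in the cells with Ccr9. Without Ccr9 it was at 29.2, 22.9 and 34.9 TPM in cells 12, 16 and 17, at 9.63 TPM in cell 15, and at 0.119 TPM or less in cells 1, 9 and 18. The ranges overlapped by cells 12, 16 and 17 only, with a mean difference of 3.18 (5.78 ± 0.84 SD, n = 10, against 2.60 ± 2.45 SD, n = 7).

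Flt3, the receptor for Flt3 ligand, ran from 39.8 to 159 TPM with Ccr9. It was at 28.1, 31.9 and 86.7 TPM in cells 12, 16 and 17, 17.3 TPM in cell 15 and 4.65 TPM or less in cells 1, 9 and 18. Cell 17 alone of the 7 lay within the range of the cells with Ccr9, and the difference was 2.91. Cd7, a surface protein of early lymphoid cells, ran from 157 to 847 TPM with Ccr9. It was at 352 and 554 TPM in cells 16 and 17, at 74.4 and 83.5 TPM in cells 12 and 15, and at 0.553 TPM or less in cells 1, 9 and 18, a difference of 4.12. For Il7r, Flt3 and Cd7 alike, cells 1, 9 and 18 were the lowest of the 7, while the order of the other 4 differed between the genes.

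Tcf7, a transcription factor that Notch induces in T lineage precursors, did not share this grouping. It ran from 0 to 30.4 TPM with Ccr9, with 8 of 10 cells above 1 TPM, and was highest among the cells without Ccr9 in cell 9, at 71.3 TPM. Its difference was 0.54, against an SD of 1.91 with Ccr9 and 2.57 without. It was 0.05 without cell 18, 1.08 without cell 9 and 1.56 without cells 9 and 15.

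The gene lists that follow were scored in each cell as the mean log2(TPM + 1) over all listed genes. Beside each count of list members past 2 stand the shares over all 9756 genes, 2.11% higher and 1.09% lower. Of the 15 lymphoid progenitor genes, 12 passed the filter on low values. Of these 12, 8 were higher by 2 or more in the cells with Ccr9, against 2.11% of all genes. Lower by 2 or more were 0, against 1.09%. Beside Il7r, Flt3 and Cd7 the 8 were Cd27, Ly6d, Rag2, Lax1 and Arpp21. A gene at 0 in all cells of 1 side passes the filter through the other side alone, so its direction was fixed. This held for Ly6d and Lax1, whose place among the 8 is therefore no support. Rag2, one partner of the recombinase of antigen receptor genes, ran from 30.3 to 86.9 TPM with Ccr9 and was at 63.2 TPM in cell 12, 28.1 TPM in cell 17, 18.9 TPM in cell 15 and 9.81 TPM in cell 16. Its partner Rag1 was above 1 TPM in 1 of 17 cells, and Dntt, the enzyme that adds bases at the joints, was listed at 0 in all of them. Cd27, a receptor of the tumor necrosis factor family, ran from 289 to 884 TPM with Ccr9 and from 0 to 575 TPM without.

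Ly6d and Lax1 were listed at 0 in all 7 cells without Ccr9. Ly6d, a surface marker of lymphoid progenitors, was above 1 TPM in 5 of the 10 cells with Ccr9, up to 225 TPM, and Lax1, an adaptor of lymphocyte signaling, in 6 of 10, up to 34 TPM. Arpp21 was only just past the size of 2, at 2.05, and was under it in 10 of the 17 cell sets that left out 1 cell. Without Ccr9 it was at 3.42 and 2.70 TPM in cells 15 and 16 and below 1 TPM in the others. It passed the filter through the side with Ccr9, so its place in the count of higher genes is no support either.

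The lymphoid list as a whole was at 4.4 ± 0.33 (SD, n = 10) with Ccr9 and at 2.42 ± 1.42 (SD, n = 7) without. The 10 cells with Ccr9 ran from 3.80 to 4.82. Cells 12, 16 and 17 were at 3.46, 3.60 and 3.98, cell 15 was at 2.97, and cells 1, 18 and 9 were at 1.49, 1.05 and 0.39. The sides overlapped by cell 17. The difference of 1.98 was 1.64 without cell 9 and 1.68 without cells 9 and 15.

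Of the 24 T lineage transcription factors and Notch target genes, 17 passed the filter. Of these, 4 were higher by 2 or more, against 2.11% of all genes, and 0 lower, against 1.09%. Ptcra, the partner chain of the pre-T cell receptor, ran from 0.517 TPM in cell 7 to 484 TPM with Ccr9, with a median of 191 TPM. Among the cells without Ccr9 it reached 314 TPM in cell 12, 44.6 TPM in cell 17 and 32.9 TPM in cell 15, and was below 1 TPM in the other 4. No day-14 cell was above 1 TPM of Ptcra. The other 3 were Runx3, a T and myeloid lineage factor at a difference of 2.63, Bcl11a, a lymphoid factor at 2.44, and Dtx1, a Notch target at 2.01. Bcl11a was at 1.76 without cell 1, 1.80 without cell 9 and 1.84 without cells 9 and 15. Dtx1 was under 2 in 11 of the 17 sets that left out 1 cell and at 1.94 without cells 9 and 15. Among the cells without Ccr9, Dtx1 was above 1 TPM in cell 17 alone, at 1.51 TPM. It passed the filter through the side with Ccr9, so its place among the 4 is no support.

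The Notch targets Hes1 and Nrarp were high on both sides. Hes1 was at 0.807 to 1376 TPM with Ccr9, above 1 TPM in 9 of 10, and at 21.9 to 447 TPM without, and Nrarp was at 8.64 to 296 TPM with and 0.374 to 212 TPM without. Gata3 differed by 1.53 and was above 1 TPM in 8 of 10 and 4 of 7 cells. Bcl11b, the factor of T lineage commitment, was listed at 0 in all 17. The list mean was 3.61 ± 0.40 (SD) with Ccr9 and 2.78 ± 0.93 (SD) without, and cells 12, 15, 16 and 17 lay between 3.47 and 3.58, inside the range of the cells with Ccr9 of 3.01 to 4.39.

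Of the 16 genes of the T cell receptor complex and its signaling, 3 passed the filter. Of these, 1 was higher by 2 or more, against 2.11% of all genes. That gene was Lck, the kinase bound to the CD4 and CD8 coreceptors. Lck ran from 405 to 1328 TPM with Ccr9, was at 1001, 811 and 741 TPM in cells 12, 16 and 17 and 231 TPM in cell 15, and was at 5.31 TPM or less in cells 1, 9 and 18. Cd3e, a chain of the receptor complex, was listed at 0 in all 17 cells. The high Lck without Cd3e held for cells 12, 16 and 17 as for the cells with Ccr9. Of the related chains, Cd3d was at 2.42 and 4.09 TPM in cells 12 and 16 and at 0 in all other cells. Cd3g was at 8.65 TPM in cell 3, which had Ccr9, and at 0 in all others.

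Of the 13 thymus settling and homing receptors, Ccr9 itself not counted, 9 passed the filter. Of these, 2 were higher by 2 or more, against 2.11% of all genes, and 0 lower, against 1.09%. The higher ones were Selplg and Itgb7, the integrin beta chain of lymphocyte homing to the gut. Itgb7 ran from 60.5 to 531 TPM with Ccr9, and was at 350.1, 177, 153 and 95.1 TPM in cells 12, 16, 17 and 15 and at 1.13 TPM or less in cells 1, 9 and 18, a difference of 3.55. Cxcr4, the receptor for Cxcl12, was at 4.28 to 56 TPM with and 0 to 29.9 TPM without, a difference of 1.53. Ccr7, the other chemokine receptor of thymus settling, was above 1 TPM in 2 of 10 cells with Ccr9, at most 3.74 TPM, and in 2 of 7 without, where cell 15 had 155 TPM. Cd44, an adhesion receptor, had a mean difference of −0.03.

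The stem and multipotent progenitor list held 23 genes, of which 12 passed the filter. Of these, 4 were higher by 2 or more, against 2.11% of all genes, and 0 lower, against 1.09%. The list differed by 0.68, by 0.43 without cell 9 and by 0.36 without cells 9 and 15. Ly6a, the gene of Sca-1, ran from 129.6 to 1068 TPM with Ccr9. Without Ccr9 it was at 954 and 299 TPM in cells 12 and 17 and at 93.8 and 66.5 TPM in cells 1 and 18, whereas cell 16 was listed at 0, a difference of 3.99, or 2.53 without cells 9 and 15. Meis1, a homeobox partner of Hoxa9, was at 5.70 to 63.7 TPM with and at most 11.7 TPM without, a difference of 3.24. Kit, the stem cell factor receptor, and Cd34 passed the size of 2 at 2.20 and 2.02 but were at 1.70 and 1.03 without cell 9 and at 1.67 and 1.75 without cell 18. Without cells 9 and 15 they were at 1.91 and 0.88. Cd34 was also at 1.96 without cell 4 and without cells 10 and 11. The induced genes themselves were on in nearly every cell, with Hoxa9 above 1 TPM in all 10 cells with Ccr9 and 6 of 7 without, cell 9 at 0.422 TPM being the exception. Reads of the cassette and of the native genes cannot be told apart in this table.

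**Figure D2:**
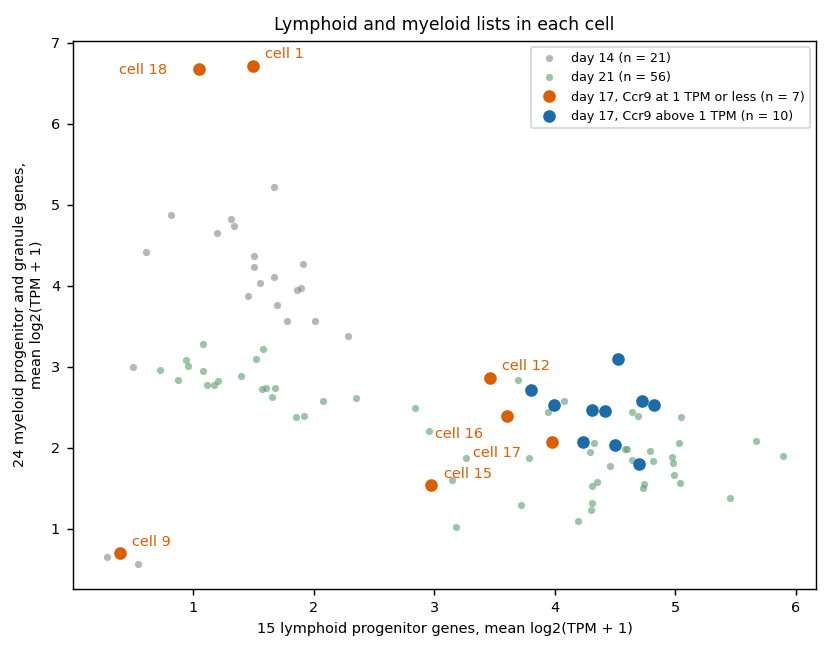
Mean log2(TPM + 1) of 15 lymphoid progenitor genes against that of 24 myeloid progenitor and granule genes, 1 point per cell, with the 7 day-17 cells without Ccr9 numbered. Cells 1 and 18 lay above every other cell on the myeloid axis, cell 9 was low on both axes, and cells 12, 16 and 17 lay beside the cells with Ccr9.

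The myeloid progenitor and granule list showed the widest spread among the cells without Ccr9. It held 24 genes, 15 of which passed the filter. Of these, 0 were higher by 2 or more, against 2.11% of all genes, and 3 lower, against 1.09%. In cells 1 and 18 the list mean was 6.72 and 6.68, with 21 of the 24 genes above 1 TPM in each, whereas the other 5 cells without Ccr9 ran from 0.70 to 2.87 and the 10 with Ccr9 from 1.80 to 3.10. Mpo, the granule peroxidase, was at 5725 TPM in cell 1 and 553 TPM in cell 18 and at most 2.36 TPM in any other day-17 cell. Csf1r, the macrophage growth factor receptor, was at 191 TPM in cell 1, 343 TPM in cell 18, and at most 17 TPM elsewhere. The lower genes were Lyz2, a lysozyme, at −3.41, Csf2rb, a shared cytokine receptor chain, at −2.72, and Fcgr3, an Fc receptor, at −2.09. Lyz2 came mainly from cell 18, at 6494 TPM, and was at −2.08 without it, while Fcgr3 was at −1.21 without cell 1 and −1.05 without cell 18 and was inside 2 for 10 of the 17 sets that left out 1 cell. Without cells 9 and 15 Lyz2 was at −5.27 and Fcgr3 at −3.36.

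The list difference of −0.85 thus rested on cells 1 and 18. It was −0.28 without cell 1, −0.29 without cell 18, −1.28 without cell 9 and −1.72 without cells 9 and 15. Sfpi1, which codes for PU.1, was high on both sides, at 368 to 866 TPM with Ccr9 and 164 to 2011 TPM in the cells without other than cell 9. Prtn3, a granule protease, was above 1 TPM in all 10 cells with Ccr9, at 17.1 to 194 TPM, and at 1623 and 258 TPM in cells 1 and 18. Irf8, a factor of monocyte and dendritic cell development, was at 620 and 636 TPM in cells 1 and 18 and at 1.99 to 200.1 TPM with Ccr9.

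Tgtp1 and Tgtp2, interferon-inducible GTPases that are near-identical neighbors and were among the genes with the largest positive differences or without overlap, ran from 25.9 to 321 TPM and from 58.1 to 250 TPM with Ccr9. Without Ccr9 they reached at most 64.5 and 56.8 TPM, with differences of 3.93 and 3.60. Reads of such copies can be shared out between them, so the level of either is uncertain. Ube2l6, the enzyme that conjugates Isg15, ran from 42.4 to 206 TPM with and from 0 to 40.2 TPM without, a difference of 3.82. Phf11c was at 17.1 to 95.6 TPM with and at most 19.5 TPM without, a difference of 3.69, and Gimap9, a GTPase of the lymphocyte Gimap family, at 46.9 to 104 TPM with and 0 to 79.1 TPM without.

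Of the 12 listed interferon response genes, 11 passed the filter and 0 were past a difference of 2 in either direction, although all 11 differences were positive with a median of 1.62. Isg15, a ubiquitin-like protein, ran from 165 to 509.5 TPM with Ccr9 and was at 508 TPM in cell 16, 209 TPM in cell 12 and 23.3 to 77.2 TPM in the other 5. The list was at 6.24 ± 0.59 (SD) with and 4.88 ± 1.3 (SD) without, where cell 9 was the lowest at 2.14 and cell 12 the highest at 6.19. The difference of 1.36 was 0.90 without cell 9 and 0.86 without cells 9 and 15. At day 14 the same list was at 1.0, so that every day-17 cell lay above the highest day-14 cell of 1.96. Whether interferon was present in the cultures was not measured.

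The letters GAAA, any 2 bases and GAAA again, which interferon response elements share, were searched on both strands in the 250 bases before the gene starts of RefSeq (GRCm38.p6). They were in 2.98% of 32851 windows, in 3.32% of the filtered genes with a window, in 12 of 153 higher genes (7.84%) and in 1 of 85 lower genes (1.18%). A match is a description and not a bound site. The stretches of Tgtp1 and Tgtp2 around them are shown, since these related neighbors hold similar letters there and differed together. The matched letters are in capitals, the stretches are on the minus strand, and they lie at chr11:48992289-48992348 and chr11:49064248-49064307, where the match starts 77 bases before the start of Tgtp1 and 70 bases before that of Tgtp2. Ube2l6, Phf11c and Gimap9 held 0 matches in their windows, and Prss2, which codes for a trypsinogen, held 1.
Tgtp1: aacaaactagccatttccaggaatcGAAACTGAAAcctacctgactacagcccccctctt
Tgtp2: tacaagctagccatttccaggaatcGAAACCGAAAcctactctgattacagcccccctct

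The other letters searched were less specific. TGTGGT, of Runx factors, was in 33 of 153 higher genes (21.6%), 13 of 85 lower genes (15.3%) and 12.8% of the filtered genes. CTTTGA, of Tcf and Lef factors, was in 15.7%, 8.24% and 12.5%, and TGGGAA, of the Notch partner Rbpj, in 28.8%, 28.2% and 23.1%. The upstream windows of Il7r and Ccr9 held none of the 4 sets of letters, which says nothing about any factor.

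Prss2, Crip1 and 8430408G22Rik were also among the 12 largest positive differences. Prss2, a trypsinogen of a family of similar genes whose reads may be shared, ran from 88.8 to 3643 TPM with Ccr9, and was at 469, 252 and 452 TPM in cells 12, 16 and 17 and at most 9.95 TPM in the other 4. Crip1, a zinc-binding LIM protein, was at 368 to 1043 TPM with Ccr9 and at 834, 572 and 1321 TPM in cells 12, 16 and 17. For both genes the difference, 4.26 and 3.95, therefore lay in cells 1, 9, 15 and 18. 8430408G22Rik was at 55.3 to 423 TPM with and at 208 TPM in cell 12 and 49.3 TPM or less in the other 6, a difference of 3.82.

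Cd81, a tetraspanin membrane organizer, had the largest negative difference, −4.27. It was at 50.3 to 499 TPM in the 7 cells without Ccr9 and at 0 to 104 TPM in the 10 with, where 7 were above 1 TPM. C1galt1c1, a chaperone of the O-glycan enzyme C1galt1, was at 22.3 to 189 TPM without and 0 to 35.2 TPM with Ccr9, with a median of 1.44 TPM. S1pr2, a sphingosine 1-phosphate receptor, was at 8.52 to 83.7 TPM without and at 0 to 42.3 TPM with, a difference of −2.94. These 3 genes were above 1 TPM in all 7 cells without Ccr9, and their ranges overlapped those of the cells with it.

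Rab3il1, an exchange factor of Rab proteins, was above 1 TPM in 7 of 7 cells without and 3 of 10 with Ccr9, a difference of −3.42. Tnfaip2, Anxa3 and Adam15 were highest in cells 1 and 18, where Tnfaip2 read 76.0 and 229 TPM, Anxa3 299 and 359 TPM, and Adam15 159 and 146 TPM. Ppic, a cyclophilin, was highest in the keratin-rich cells, and Gpx3, a secreted glutathione peroxidase, in 1 of them. Gpx3 was at 1435 TPM in cell 15, 593 TPM in cell 18 and 447 TPM in cell 9, and its difference of −3.59 was −2.17 without both. Ppic was at 1249 TPM in cell 9 and 567 TPM in cell 15, and its difference of −3.25 was −1.89 without both. Ube2c, which the cell cycle machinery uses for protein turnover, was at −2.98 and the pseudogene Hmga2-ps1, whose reads may belong to its parent gene, at −2.92.

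Lists of other cell types were read for what the gate could hold. The endothelial list had 3 of 4 filtered genes, of 11 listed, higher by 2 or more, against 2.11% of all genes. It differed by 0.48, or by 0.30 without cell 18. Esam was at 16.9 to 400.5 TPM with Ccr9 and at 209.7, 121, 118 and 79.5 TPM in cells 16, 12, 17 and 15, Pecam1 differed by 2.15 and Eng by 2.33, whereas Cdh5, the defining junction protein of endothelium, was listed at 0 in all 17 cells. Pecam1 was at 1.58 without cell 9, without cell 18 or without cells 9 and 15, and at 1.99 without cell 1. Among the cells without Ccr9, Eng was above 1 TPM in cell 15 alone, at 4.30 TPM. It passed the filter through the side with Ccr9, so its place among the 3 is no support. The stromal feeder list, of 12 genes, ran from 0.40 to 1.02 with Ccr9 and from 0.14 to 1.86 without, highest in cells 15, 9 and 12. Its difference of −0.22 was 0.10 without cells 9 and 15. Of it, Pdgfrb, the platelet-derived growth factor receptor beta, was higher by 2.50 with Ccr9, and by 1.93 without cell 18. The matrix gene Sparc was at 439.5 and 451 TPM in cells 9 and 15, and Dcn was listed at 0 in all 17 cells.

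The mast cell and basophil list had 1 of 12 genes past the filter, Cpa3, a mast cell protease, which was above 1 TPM in 7 of 10 cells with and 3 of 7 without Ccr9, up to 139 TPM. Its difference of 2.23 was under 2 without any 1 of cells 1, 4, 5, 8, 12 or 18. Of 20 innate lymphoid and cytotoxic genes 6 passed and 1 was higher by 2 or more, against 2.11% of all genes. That gene was Id2, an inhibitor of E proteins, at 2.29. Id2 was under 2 without any 1 of cells 1, 10, 12, 16 or 17, where cells 10 and 11 left the set together, and at 3.46 without cells 9 and 15. The innate list differed by 0.13, and by 0.27 without those 2 cells. Dendritic (14 genes, 6 filtered), B lymphoid (10 genes, 1 filtered), erythroid (9 genes, 3 filtered) and megakaryocyte (9 genes, 0 filtered) lists had no gene past 2 in either direction, with list differences of 0.08, 0.02, 0.20 and −0.12. The erythroid value was 0.47 without cells 9 and 15. Pax5 of B cells was listed at 0 in all 17 cells. The sort gate list of 10 genes differed by 0.11, and by −0.05 without cells 9 and 15, with Cd2, Cd3e and Fcer1a, whose proteins were gated out, at 0 in all 17, while Cd4 was above 1 TPM in 2 of the 10 cells with Ccr9, up to 9.61 TPM. Emr1, the gene of the gated-out F4/80, was at 24, 30.3 and 1.26 TPM in cells 1, 12 and 18 and at 16.7 TPM in the merged cell 10, and at 0.106 TPM or less in the other 13.

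The cell cycle list did not separate the sides. All 20 of its genes passed the filter, 0 were past 2 in either direction, and the list was at 7.03 ± 0.51 (SD) with and 7.05 ± 0.70 (SD) without Ccr9. Pcna, the replication clamp, was at 532 to 1179 TPM with and 349.5 to 1160.1 TPM without. Mki67, a marker of cycling cells, was at 0 to 17.1 TPM with and 0.807 to 17.4 TPM without. The lowest cells of the list were cell 17 at 5.56 and cell 13 at 5.84, which fell on different sides. The immediate early list, of 10 genes with 7 filtered, differed by −0.09 and the chemokine list, of 8 genes with 4 filtered, by −0.18, with no gene past 2 in either list. The chemokine value was −0.52 without cells 9 and 15.

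**Figure D3:**
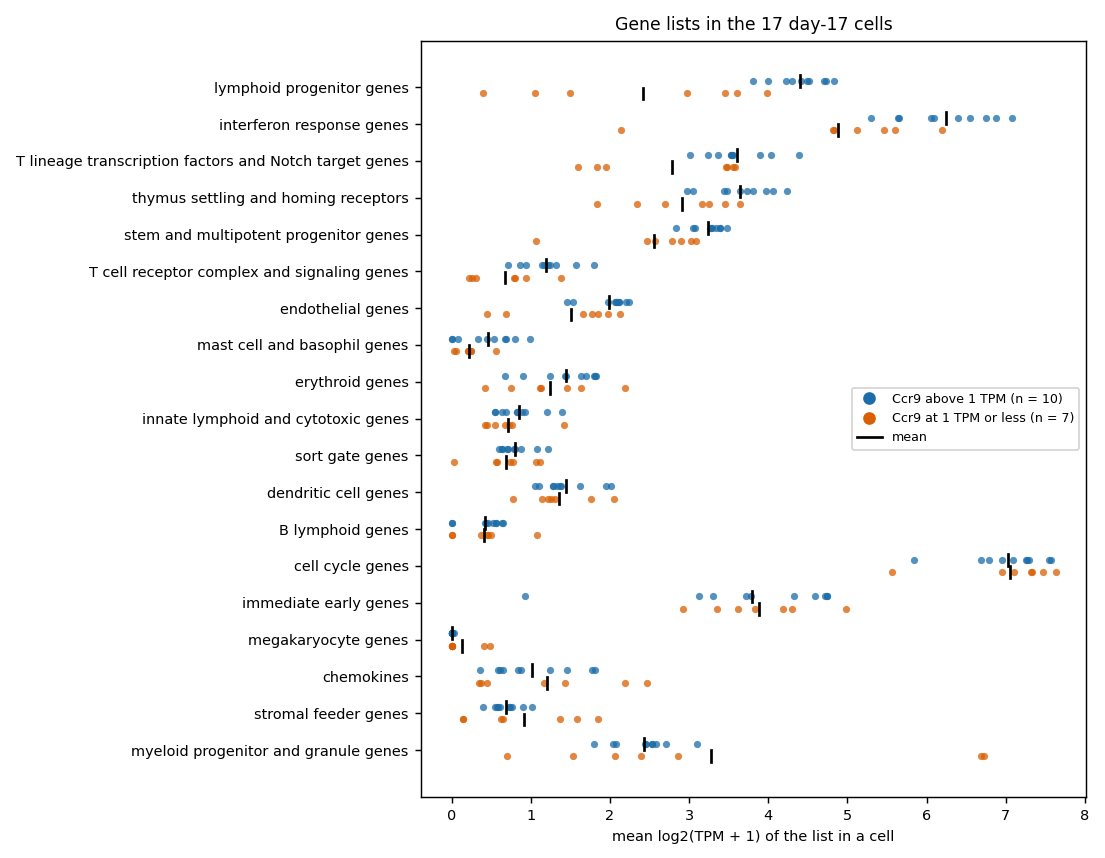
Mean log2(TPM + 1) of 19 gene lists in each of the 17 day-17 cells, with and without Ccr9, ordered by the difference of the side means drawn as bars. The sides overlapped in every list, and the cells without Ccr9 spread further than those with it in the lymphoid, T lineage, stem, interferon and myeloid lists.

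The cells with Ccr9 spread less than those without in several lists. The SD of the lymphoid list was 0.33 with and 1.42 without Ccr9, that of the stem list 0.20 and 0.69, and that of the myeloid list 0.37 and 2.43, where cells 1 and 18 stood far above the other 5. Within the 10 cells with Ccr9, Spearman's rho with the Ccr9 level was 0.43 for Il7r, −0.04 for Cd7, −0.02 for Flt3 and 0.06 for Tcf7, given as a description over 10 cells that share library scaling. Cell 5, with the least Ccr9, had 44.5 TPM of Il7r and 378 TPM of Cd7. The sides overlapped in the number of genes above 1 TPM, at 6536 to 8815 with Ccr9 and 6944 to 9658 without.

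For each of the 7 cells without Ccr9 it was counted how many of the 206 higher genes lay at or above the lowest cell with Ccr9. Cells 12, 16 and 17 did so for 79.6%, 78.2% and 70.9% of these genes. Cell 15 did so for 63.6%, cells 1 and 18 for 50.5% each and cell 9 for 43.7%. Over all 9756 genes the same share ran from 88.0 to 95.4%. Of the 106 lower genes, cells 12, 16 and 17 lay at or below the highest cell with Ccr9 for 81.1%, 76.4% and 83.0%, and the other 4 cells for 34.9 to 48.1%, against 83.9 to 94.1% of all genes. The 206 and 106 genes were picked on the values of these same 7 cells. Shares below those of all genes therefore follow from that choice, and the order of the cells is no separate support. On these genes cells 12, 16 and 17 lay nearest to the cells with Ccr9, as they did for Il7r and Lck. Each of them was listed at 0 TPM of Ccr9.

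To relate the sides to the days before and after, each cell was placed on the line from the mean of the day-14 cells (0) to the mean of the day-21 cells (1) over the 9756 genes. The cells with Ccr9 lay between 0.210 and 0.632, with a median of 0.337. Those without had a median of 0.001, with cells 9, 15, 1 and 18 at −0.147, −0.055, −0.047 and 0.001, and cells 16, 12 and 17 at 0.278, 0.409 and 0.560. Day-14 cells lay between −0.233 and 1.0, with a median of −0.015, and day-21 cells between 0.509 and 1.66, with a median of 0.840. Cells 12, 16 and 17 thus lay inside the range of the cells with Ccr9, and cells 1, 9, 15 and 18 below it. The number of genes above 1 TPM also differed along this line, with a median of 8200 at day 14 and 6695.5 at day 21. Cells 7, 17, 13 and 12 had the highest positions of the day-17 cells and the fewest such genes, at 6536, 6944, 7336 and 7510. The part of gene detection in the positions was not tested.

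**Figure D4:**
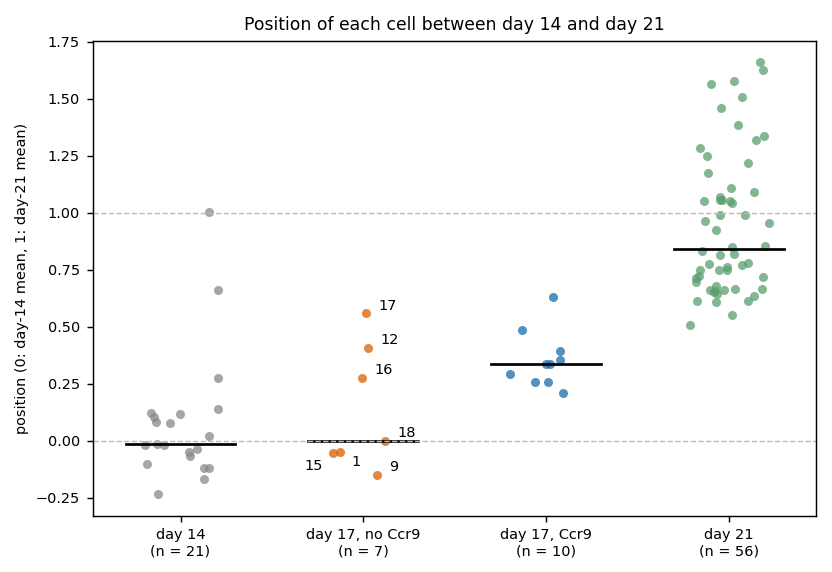
Position of each cell between the day-14 mean (0) and the day-21 mean (1), with the median of each group as a line and the day-17 cells without Ccr9 numbered. The 10 cells with Ccr9 lay between 0.210 and 0.632, and the 7 without fell around 0 (cells 1, 9, 15 and 18) and between 0.278 and 0.560 (cells 12, 16 and 17).

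The correlation of each cell with the mean profiles gave a similar order. It was higher with the day-21 mean than with the day-14 mean in 9 of the 10 cells with Ccr9, by 0.003 to 0.021, cell 3 being the exception at −0.003. Without Ccr9, cells 12 and 17 were higher with day 21, by 0.007 and 0.018, cell 16 stood at −0.00037, and cells 1, 9, 15 and 18 stood between −0.077 and −0.042. Of the 10 nearest cells of each cell, day-14 cells made up 52 of 100 for the cells with Ccr9 and 58 of 70 for those without. Day-21 cells made up 2 of 100 and 0 of 70, although they were the larger group, and cells with Ccr9 made up 32 of 100 and 8 of 70.

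The genes that separated the sides were read in the other two iHPC groups, which the split did not use. Of the 206 higher genes, 144 (69.9%) had a higher mean at day 21 than at day 14, against 28.6% of all 9756 genes, and 56 (27.2%) by 2 or more, against 1.52%. Of the 106 lower genes, 99 (93.4%) were lower at day 21, against 71.4% of all genes, and 34 (32.1%) by 2 or more, against 4.25%. For 192 of the 206 higher genes, however, the mean of the cells with Ccr9 lay above both the day-14 and the day-21 mean. For 88 of the 106 lower genes the mean of the cells without Ccr9 lay above both. The genes were picked for the higher mean on that side, and these counts were not made over all genes. Cpa3, at 0.06 at day 14, 4.05 in the cells with Ccr9 and 10.74 at day 21, was not one of the 192. It was the furthest to the right among the higher genes.

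**Figure D5:**
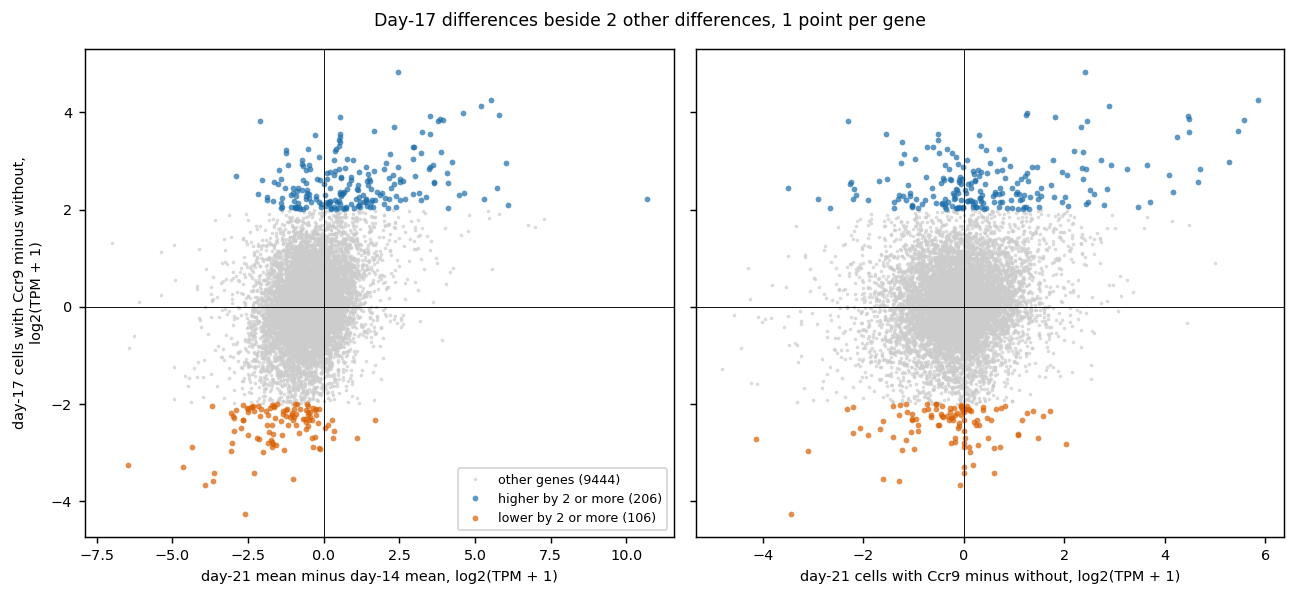
Difference of mean log2(TPM + 1) between day-17 cells with and without Ccr9 for 9756 genes, plotted against the day-21 mean minus the day-14 mean on the left and against the same split of day-21 cells on the right. On the left plot 69.9% of the 206 higher genes lay to the right of 0, against 28.6% of all genes. To its left lay 93.4% of the 106 lower genes, against 71.4% of all genes. On the right plot the shares were 60.7%, against 44.4%, and 60.4%, against 55%.

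Day-21 iHPCs were divided by the same threshold into 33 cells with and 23 without Ccr9. There 125 of the 206 genes (60.7%) were higher in the cells with Ccr9, against 44.4% of all genes, and 36 (17.5%) by 2 or more, against 1.21%. Of the 106 lower genes 64 (60.4%) were lower, against 55% of all, and 7 (6.6%) by 2 or more, against 1.75%. Of the genes named above, the day-21 difference was 5.85 for Prss2, 5.58 for Lck, 5.46 for Cd27, 5.28 for Ly6d, 4.48 for Ptcra and Tgtp2 and 4.47 for Tgtp1. It was 3.66 for Flt3, 2.88 for Cd7 and 2.36 for Il7r. Tcf7, which hardly differed at day 17, differed by 3.24 at day 21. Ube2l6 went the other way at day 21, by −2.30, as did Itgb7 by −1.54 and Prkca by −0.97.

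The mast cell and basophil list moved with this day-21 split. It was at 2.64 in the day-21 cells with Ccr9 and at 5.96 in those without, a difference of −3.33, and its part in the day-21 differences was not tested. Among the 22 day-21 cells with Gata2, a mast cell and stem cell factor, at 1 TPM or less, 17 had Ccr9 and 5 did not. In these 102 of the 206 genes (49.5%) were higher with Ccr9, against 45.9% of all genes, and 38 of the 106 (35.8%) were lower, against 52.8%. The lymphoid list differed by 2.24 over all day-21 cells and by 0.29 among those with low Gata2, where Il7r was at 5.40 with and 5.74 without Ccr9.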

How the data were processed

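According to the methods and labels, the authors amplified each sorted cell's RNA (Discover-sc WTA Kit V2), kept those in which qPCR found B2m and Gapdh, aligned reads to mm10 with HISAT2 2.1.0 and estimated TPM with StringTie 1.3.4. SAMtools 0.1.19 is named in the submitters' processing notes. The labels and methods name different sequencers. The deposited TPM values formed 1 table of 23420 genes and 160 cells, with 0 columns left unused. TPM keeps no read counts, so the depth of a cell is unknown, a higher level of some genes lowers the rest, and no molecular tags are stated. A value of 0 can be a failed estimate. The TPM of a day-17 library summed to between 993125 and 999108. Names of 27 rows had become dates and 2 names were repeated, and these were not named.

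Values were analyzed as log2(TPM + 1), so differences of low genes are understated. Genes above 1 TPM in at least 5 of the 18 day-17 libraries were compared as differences of means and by the share of pairs of cells. The size of a named difference was 2. The design was written for 18 cells, but libraries 10 and 11 were averaged as 1 cell. Cells are not replicates and a group is 1 sample, so no test between groups was run. Named genes were the 12 largest differences in each direction, list members past 2, the 5 markers and examples from 19 lists of 261 genes, of which 2 were not matched. The members, lists and sides were chosen with earlier results of these data known, and Krt8, Krt18, Coro1a, Sox9 and Hand1 after their values were seen. Binomial intervals are exact (Clopper-Pearson, 95%), and a share of 0 was given the upper limit of 3 cells over the number of cells. Neither covers more than counting error. Gene positions are from GENCODE vM21 (GRCm38, the assembly that mm10 names). The steps were checked on simulated data. Python 3.11.15, numpy 2.4.6, pandas 2.3.3, scipy 1.17.1 and matplotlib 3.10.9 were used. Alternatives changed the filter, the pseudocount, the Ccr9 threshold, the scaling and the cells. Some list genes are not reported here.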

Additional observations from a re-analysis of the deposited data

Results flagged for a closer look

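In 140 sets of values, each a gene, a list, the position or the number of genes within the cells of 1 side, 18 lowest or highest cells stood further from the rest than Dixon's 95% limit allows. Chance flags about 1 in 20 groups, and the sets share genes and cells. All values are on the log2(TPM + 1) scale.

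Cell 9 was lowest of the cells without Ccr9 in the stem list, at 1.07 against 2.47 or more, and in the interferon list, at 2.14 against 4.81 or more. Cell 15 was highest in the innate lymphoid list, at 1.42 against at most 0.76, and in Eng, a receptor of endothelium and blood progenitors, at 2.41. Cells 9 and 15 were the keratin-rich ones. Cell 17 was highest in the mast cell list, at 0.56, and in Dtx1, at 1.33, and lowest in the cell cycle list, at 5.56 against 6.95 or more. Cell 18 was highest in C1galt1c1, at 7.57.

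Among the cells with Ccr9, cell 13 was lowest in the cell cycle list, at 5.84 against 6.69 or more. Cell 7 was lowest in the immediate early list, at 0.93 against 3.12 or more, and in Ptcra, at 0.60 against 5.43 or more. Cell 7 also had the fewest genes above 1 TPM, 6536. Cell 3 was highest in Tnfaip2, at 2.71, and in Anxa3, at 2.58. Cell 5, the one with the least Ccr9, was highest in the megakaryocyte list, at 0.030 with the other 9 cells at 0, and lowest in Runx3, at 4.07. Cell 10 was highest in Hmga2-ps1, at 2.40, cell 14 was lowest in Itgb7, at 5.94, and cell 6 was highest in Csf2rb, at 5.83.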

How the results depend on the processing

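The split at 10 TPM of Ccr9 put 8 cells against 9 and gave 137 higher and 86 lower genes, of which 91 and 38 were among the 206 and 106 reported, and 35 genes were higher and 13 lower in at least 0.9 of pairs. Of 49 named differences of 2 or more, 15 were then under 2, among them Cpa3 at 0.38, Fcgr3 at −1.11, Eng at 1.35, Dtx1 at 1.39 and Selplg at 1.82. A pseudocount of 0.1 gave 674 higher and 530 lower genes and one of 10 gave 21 and 6, and the latter placed the cells with Ccr9 at a median of 0.471 in place of 0.337. Leaving out each cell in turn gave 176 to 285 higher genes, 88 to 194 lower genes, 65 to 126 genes higher in most pairs and 22 to 68 lower in most pairs. The genes lower in most pairs numbered 35 without cells 9 and 15 and 37 without cells 3, 9 and 15, alternatives chosen after the data were seen. Among day-21 cells with low Gata2 the shares were 49.5% and 35.8%, against 45.9% and 52.8% of all genes. They stood in place of 60.7% and 60.4%, against 44.4% and 55% of all genes. Median-of-ratios size factors gave 184 higher and 102 lower genes. The cause of these shifts was not tested, except that each leave-out has fewer cells. Of the recomputed counts, lists, positions and shares 592 stayed within the set margins and 22 did not. The margins are not given here, so this tally is no measure of how stable the results were. Leaving out each cell in turn, for example, moved the myeloid list difference from −0.85 to values between −1.28 and −0.28.

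No paired analysis was possible because the replicate numbers only count libraries within a day and no test between groups was run. The depth of each cell is unknown, so a 0 cannot be told apart from a missed transcript. With 1 sample a group, differences between the sides and between days carry no replicate check, and 10 and 7 cells limit each share.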

Other observations

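Nodal, a morphogen of the early embryo, was at 98.9 TPM in cell 15, the cell with both keratin and leukocyte transcripts, and this gene was chosen after its value had been seen. Cell 15 also had the most genes above 1 TPM of the 17 cells, 9658. In 4 pairs of day-14 libraries the correlation reached 0.959 to 0.978. Leaving out 1 of each pair placed the cells with Ccr9 at a median of 0.347 and those without at 0.012.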
